A study of Mus musculus with 11 samples.

Results

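The cells described here are mouse lung cells selected on the RNA of adventitial fibroblasts. A barcode was a member if it held 1000 to 30000 UMIs (unique molecular identifiers, 1 per captured RNA molecule), at most 14% of them mitochondrial, no UMI of Ptprc (CD45, the leukocyte surface phosphatase) and at least 3 UMIs of the collagen genes Col1a2 and Col3a1. In addition, its UMIs of Pi16, Col14a1 and Serpinf1 together had to number at least 2 and to exceed those of Npnt, Itga8 and Tcf21, which mark alveolar fibroblasts. Of 69267 cells that passed the UMI and mitochondrial limits, 1616 met the collagen and Ptprc conditions, and 342 of these were members (0.494% of filtered cells and 21.2% of the collagen-positive cells). The mirror condition, with Npnt, Itga8 and Tcf21 in the lead, held 1109 cells, called the alveolar gate here, and 165 cells met neither.

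The study profiled dissociated lungs by droplet-based 3′ single-cell RNA sequencing in 11 libraries. There was 1 wild-type library (WT, +/+), 3 from p21 heterozygotes (p21Het, +/-), 5 from p21 mTert mice (p21mTert, +/mTert) and 2 from p21 mTertCD mice (p21mTertCD, +/mTertCD). The series title names the induction of mTert, the mouse telomerase reverse transcriptase, in p21-positive cells, and p21 is the product of Cdkn1a, a cell cycle inhibitor raised in damaged and senescent cells. All groups other than WT carry 1 altered p21 allele, so that p21Het is the control for that shared change. The title of every library gives an age of 18 months. The age field gives 19 months for p21Het_1 and 20 months for p21mTert_1, and 18 months for the other 9 libraries. Below, p21Het_1 stands for the p21Het library with replicate number 1, and so on. WT_1, p21Het_1 and p21mTert_1 belong to an earlier deposit than the other 8. No label states that libraries of 1 group came from separate animals, so the p-values below measure the spread between these libraries.

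Adventitial fibroblasts lie in the connective tissue sheath around bronchi and larger blood vessels, whereas alveolar fibroblasts lie in the walls of the air sacs. They build the collagen and proteoglycan coat of the vessel, and in several organs Pi16, a secreted protease inhibitor-like protein, marks fibroblasts of this niche. They are also known as a source of chemokines and of the alarmin Il33 for immune cells that gather around vessels and airways.

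The libraries held 5686 to 10525 barcodes and 42038434 to 85988955 UMIs each. The median mitochondrial share of filtered cells was 6.3% to 6.58% in the earlier deposit and 2.82% to 4.28% in the later one. Pairs of libraries shared 9 to 83 cell barcodes; no member barcode was a member in a second library. The WT library held 25 members, the p21Het libraries 26, 44 and 34, the p21mTert libraries 21, 30, 38, 35 and 15, and the p21mTertCD libraries 23 and 51, each in the order of their replicate numbers. Their summed UMIs, on which the gene tests rest, came to 159316 to 518613 per library and 3489822 in all. The median member held 9051.5 UMIs and 2925 genes, about the depth of the alveolar gate (9786 UMIs) and above that of B cells (4281.5 UMIs). When every cell was thinned at random to 1000 UMIs, 96 cells met the conditions.

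The marker genes that chose the members were not carried by all of them. Col14a1, a fibril-associated collagen, was found in 304 members (88.9%), Serpinf1 (pigment epithelium-derived factor) in 224 (65.5%) and Pi16 in 207 (60.5%). All 3 were present in 157 members, while 95 members qualified through Col14a1 alone. The median member held 11 UMIs of the 3 genes, and 95 held 20 or more. At the edge of the rule, 27 members had exactly 2 such UMIs, 21 exceeded the alveolar genes by 1 UMI and 18 had exactly 3 collagen UMIs. Just outside it were 30 cells with 1 UMI of the 3 genes and none of the alveolar ones, 26 cells with equal counts, 19 cells with 2 collagen UMIs and 49 cells with a Ptprc UMI.

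In cells thinned to 1000 UMIs, Pi16 was seen in 34.5% of members, 0.721% of the alveolar gate, 0.193% of B cells and 0.223% of endothelial cells. The last 2 types should lack it and give the background from free RNA. Scara5, a scavenger receptor that the selection did not use, was seen in 16.1% of members, in 0 of 1109 alveolar-gate cells and in 0.0181% of B cells. Sftpc, the surfactant protein C gene of alveolar epithelium, was seen in 32.5% of members and in 43.5% of B cells. Its share in members was thus not above that in B cells. B cells held fewer UMIs before thinning (median 4281.5 against 9051.5), so their share need not equal the background of members. The level of Sftpc in members was uneven, from 111.6 CPM in p21Het_3 to 5571 CPM in p21Het_2. In 1 of the clusters of members described below (cluster 3) it reached 12743 CPM. Scgb1a1 of club cells was seen in 52% of members and 74.8% of B cells.

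Promoters of 3 genes are shown to give the sequence beside the genes that set the adventitial and alveolar gates apart: Pi16, which chose the members; Il33, among the 25 genes highest in members against the alveolar gate; and Actc1 (cardiac alpha actin), among the 15 lowest. They are RefSeq sequences of build GRCm38.p6, from 250 bases before to 50 bases after the RefSeq start, 300 bases in all. Capitals mark the 50 bases after that start in Pi16 (chr17:29318632-29318931, plus strand), TATAAA in Il33 (chr19:29924863-29925162, plus strand, 1 of 2 promoters), and TATAAA and a CArG box in Actc1 (chr2:114052826-114053125, minus strand). The TATAAA of Actc1 lies after the RefSeq start and its CArG box 47 bases before it. GENCODE M21 places the start of Pi16 at 29317680 and that of Actc1 (minus strand) at 114053548. Both windows thus lie inside these genes.
Pi16: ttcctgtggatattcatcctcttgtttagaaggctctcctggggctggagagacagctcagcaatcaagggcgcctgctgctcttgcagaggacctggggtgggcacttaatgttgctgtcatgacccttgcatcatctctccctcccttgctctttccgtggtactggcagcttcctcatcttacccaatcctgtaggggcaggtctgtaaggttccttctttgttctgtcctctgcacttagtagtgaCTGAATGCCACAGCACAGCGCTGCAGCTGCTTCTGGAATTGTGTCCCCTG
Il33: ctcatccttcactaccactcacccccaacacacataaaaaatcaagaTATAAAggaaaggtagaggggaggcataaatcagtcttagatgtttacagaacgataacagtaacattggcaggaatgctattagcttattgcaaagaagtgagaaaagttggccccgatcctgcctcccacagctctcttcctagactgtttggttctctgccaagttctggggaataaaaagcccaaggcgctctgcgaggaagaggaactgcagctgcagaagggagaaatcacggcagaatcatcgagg
Actc1: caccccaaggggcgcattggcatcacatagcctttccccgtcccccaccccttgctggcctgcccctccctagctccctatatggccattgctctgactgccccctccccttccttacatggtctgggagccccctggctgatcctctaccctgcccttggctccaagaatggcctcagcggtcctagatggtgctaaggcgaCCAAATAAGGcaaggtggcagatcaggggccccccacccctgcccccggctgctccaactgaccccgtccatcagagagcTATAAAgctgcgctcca

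Searched on both strands, TATAAA was found in 5 of 22 promoters of the 25 highest genes (in 4 of the 16 genes with an entry), in 1 of 13 of the 15 lowest (10 genes had an entry) and in 13.6% of all 32851 promoters. The AP-1 motif TGANTCA was found in 4 of the 22 (each a promoter of Dmkn or Entpd2), 1 of the 13 and 7.81% of all. The CArG box, the serum response factor motif of muscle genes, was found in none of the 22, in 2 of the 13 (Actc1 and Nebl) and in 1.63% of all. These are matches of letters in a short window and not binding sites.

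The members were not of 1 kind. Clustering of the 342 cells gave 8 clusters, and 4 of them with 242 cells in all (clusters 1, 2, 5 and 6; 10 to 40 cells per library) had Pi16 in 73.0% to 100% of their cells. They are called the core here; cluster 2, with 84 of these cells, was led by genes of alveolar fibroblasts. Clusters 4 and 7, with 38 and 15 cells, were mesothelial-like: Msln (mesothelin) was present in 100% and 86.7% of their cells, Upk3b in 100% of both and Wt1 (a transcription factor of mesothelium) in 97.4% and 100%. No cell of either cluster had a Pi16 UMI, and all but 2 of them qualified without Serpinf1. Cluster 3, with 41 cells, was led by Myh11, Tagln and Acta2 of contractile cells and by Hhip and Aspn, together with surfactant genes. Cluster 8, with 6 cells, was endothelial-like, with Cldn5 in 83.3% of cells. Since the clusters were made from the same genes, these values describe them and are not tests.

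**Figure D1:**
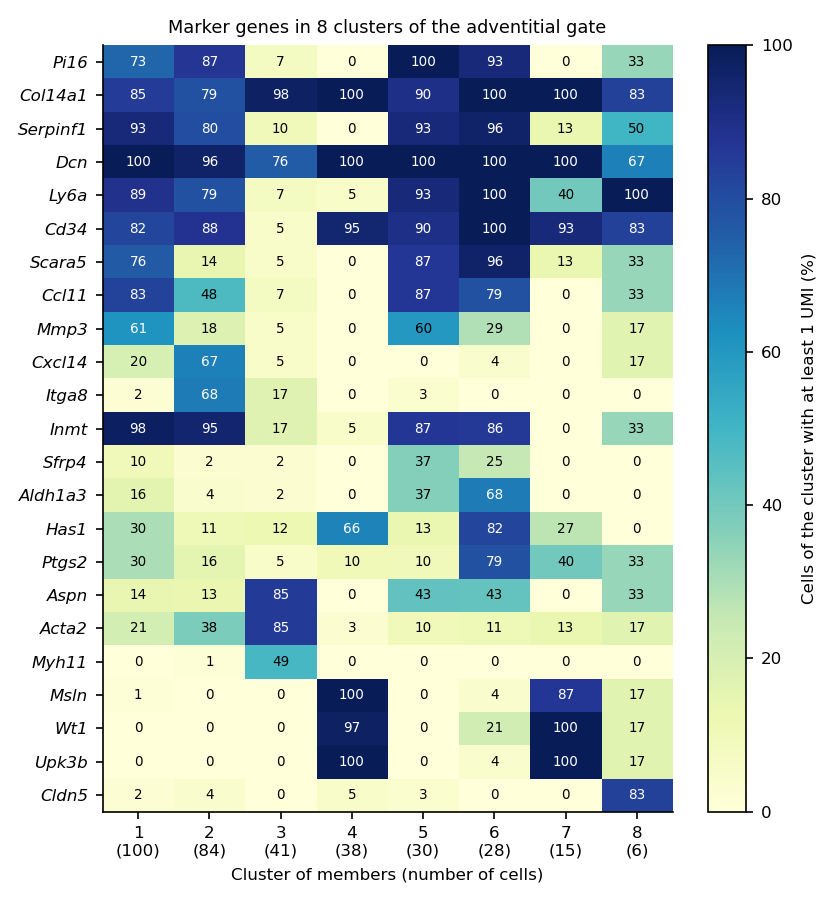
Share of cells with at least 1 UMI of each gene (rows) in each of the 8 clusters of members (columns, number of cells in brackets), as percent. Pi16 reaches 73.0% to 100% in clusters 1, 2, 5 and 6 and 0% in clusters 4 and 7, where Msln, Wt1 and Upk3b are found instead.

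The mesothelial part was sharply separated. Summed over 9 mesothelial genes, 288 members held 0 to 8 UMIs and the other 54 (15.8%) held 35 or more. All 54 lacked Pi16, and 52 lacked both Pi16 and Serpinf1, so that Col14a1 had brought them in. They held more RNA, with a median of 16241.5 UMIs against 8203.5. Their share of the members was 20.0% in WT, 19.0% ± 7.56 (SD, n = 3) in p21Het, 14.6% ± 5.34 (n = 5) in p21mTert and 12.4% ± 0.905 (n = 2) in p21mTertCD. The label of adventitial fibroblasts therefore does not hold for every member, and within the core it is mixed in cluster 2. Counts over gene lists are given below for the members and for the core. Scrublet, which scores barcodes that may hold 2 cells, marked 50 members (14.6%), of them 13 in cluster 3, 16 in clusters 4 and 7 and 18 in the core.

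Within the core, cluster 1 (100 cells, all 11 libraries) was led by chemokine and matrix protease genes, among others. Ccl11 (eotaxin) was present in 83.0% of its cells at 811.5 CPM (the gene's UMIs scaled to the summed UMIs of the cells named, per the usual counts-per-million convention), Cxcl12 in 86.0% at 859.9 CPM, and Ccl8 in 37.0% against at most 16.7% in any other cluster. Mmp3 (stromelysin) stood at 1215 CPM and Timp1, a metalloproteinase inhibitor, at 340.2 CPM. Igkc, an antibody light chain, also led this cluster, but 84.5% of its UMIs in all members came from 1 cell of p21mTert_2.

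Cluster 2 (84 cells, all 11 libraries) combined Pi16, in 86.9% of its cells, with genes of alveolar fibroblasts. Itga8, itself on the alveolar side of the rule, was present in 67.9% of its cells against at most 17.1% elsewhere. Cxcl14 stood at 677.4 CPM, Inmt at 3240 CPM and Fgf10 at 96.9 CPM, and Lrat, which makes retinyl esters, was present in 41.7%. Scara5 was found in 14.3% of its cells, against 76.0%, 86.7% and 96.4% in clusters 1, 5 and 6. In clusters 1, 5 and 6, Itga8 was present in 2.0%, 3.3% and 0.0% of cells and Lrat in 3.0%, 0.0% and 0.0%. Inmt was present in 98.0%, 86.7% and 85.7%. The Pi16-positive core thus ran from cells with Itga8 and Lrat to cells nearly without them, while Inmt was found throughout.

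Cluster 5 (30 cells, 10 libraries) had Pi16 in every cell and the highest levels of Dcn (19541 CPM), Mmp3 (1726 CPM) and Scara5 (698.8 CPM) of the 8 clusters, with Sfrp4, a Wnt antagonist, in 36.7%. Cluster 6 (28 cells, 8 libraries) held genes of an inflammatory and hyaluronan-making state. Has1 (hyaluronan synthase) stood at 1278 CPM, Ugdh, which makes its sugar precursor, at 1348 CPM, Ptgs2 (cyclooxygenase) at 1227 CPM and Tnfaip6, a hyaluronan-binding protein, at 755.3 CPM. The chemokine genes Ccl2, Ccl7 and Cxcl13 reached 433.3, 268.7 and 815.8 CPM, against at most 43.1, 34.2 and 87.4 CPM in the other clusters. Its median cell held 15642.5 UMIs, the deepest of the core, and 7 of its cells came from p21mTert_2 and 7 from p21Het_3. p21Het_1, p21mTert_1 and p21mTert_5 had no cell in it.

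The alveolar gate served as the reference that shows which genes set the members apart from other lung fibroblasts. The gates were chosen on Pi16, Col14a1 and Serpinf1 against Npnt, Itga8 and Tcf21, so this comparison is a description with no test. In each library the CPM of the summed UMIs were compared as a log2 ratio with 1 CPM added, and the median over 11 libraries is given. Of 3622 genes with at least 50 CPM in either gate, 260 (7.18%) were more than 2-fold higher in members and 318 (8.78%) more than 2-fold lower, each with the same sign in at least 10 libraries. The median over all these genes was -0.04.

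**Figure D2:**
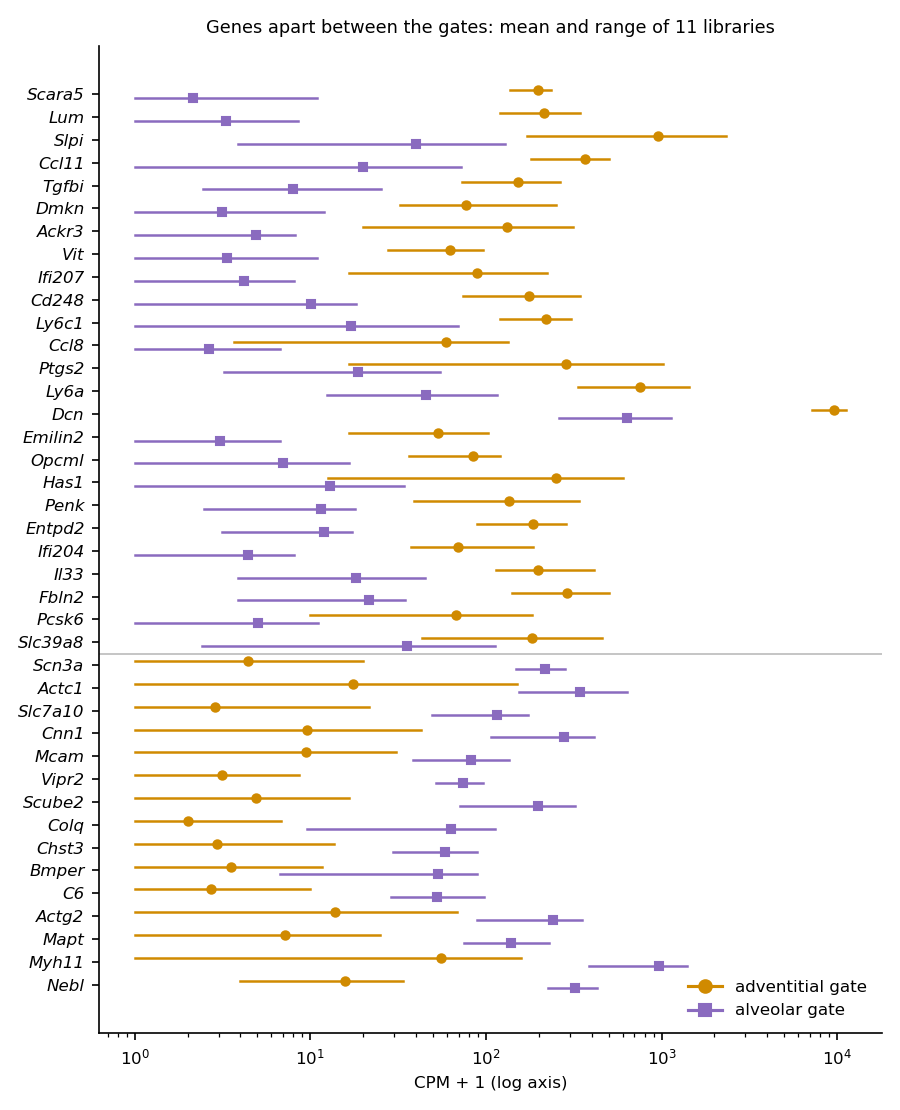
Mean (symbol) and range over 11 libraries (line) of CPM + 1 on a log axis, in the adventitial gate (circles) and the alveolar gate (squares), for the 25 genes with the highest and the 15 with the lowest median ratio. Scara5 and Lum show ranges that do not meet between the gates, and Slpi and Dmkn are low in the core (13.4 and 5.56 CPM).

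Scara5 stood furthest apart. Its level in members was 196.8 CPM in WT. The p21Het libraries had 135.5, 218.2 and 234.5 CPM, those of p21mTert 210.3, 207.7, 178.4, 173.5 and 169.5 CPM, and those of p21mTertCD 216.0 and 221.7 CPM. It ranged from 0 to 9.93 CPM in the alveolar gate, and the median log2 ratio was 7.49 (8.09 in the core). Scara5 thus varied little between libraries or groups, and no library of 1 gate overlapped the other.

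Lum (lumican), a small proteoglycan that spaces collagen fibrils, stood at 212.8 ± 69.7 CPM (SD, n = 11 libraries) in members and 2.29 CPM in the alveolar gate. Dcn (decorin), its relative, stood at 9638 ± 1442 CPM against 635.4 CPM (log2 ratio 4.09; range in members 7226 to 11290 CPM). Neither gene rested on the mesothelial-like cells, since the core held 226.6 and 12430 CPM. Lum was, however, also high in the contractile cluster 3, at 710.3 CPM in 75.6% of cells.

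Other genes among the 25 highest were surface proteins, signals and immune mediators. Cd248 (endosialin) stood at 175.7 CPM against 9.13, Ly6a (Sca-1) at 751.7 against 44.3, and Ackr3, a scavenger receptor for Cxcl12, at 130.9 against 3.91. Among secreted factors, Ccl11 stood at 366.5 ± 112 CPM against 18.8, and Il33 at 197 ± 81.7 against 17.2. Penk, the precursor of enkephalin peptides, stood at 134.7 against 10.6 CPM, and Has1 at 250.8 against 12.0. Has1 and Ptgs2 had wide ranges between libraries: Has1 ranged from 11.7 CPM in p21mTert_1 to 601.1 CPM in p21Het_3, and Ptgs2 from 15.6 CPM in p21Het_1 to 1023 CPM in p21mTert_5.

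A few of the 25 belonged to the mesothelial-like cells. Slpi, a secreted protease inhibitor, reached 171.3 to 2318 CPM in members but 13.4 CPM on average in the core, Dmkn 5.56 CPM in the core and Slc39a8, a zinc transporter, 6.37 CPM. Among adventitial markers outside the rule, Dpp4 was in part of the same kind. It stood at 129.8 CPM in members, 30.5 CPM in the core and 479.3 CPM in cluster 4. In cluster 1 Dpp4 was found in 2.0% of cells and in cluster 2 in none of 84. In clusters 5 and 6 of the core, however, it was found in 16.7% and 50.0% of cells, at 38.35 and 162.2 CPM.

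At the other end were genes of contractile cells and of alveolar fibroblasts. Scn3a, a sodium channel, stood at 3.41 CPM in members and 214.7 in the alveolar gate; Slc7a10, an amino acid transporter, at 1.86 against 114.9; and Scube2 at 3.89 against 196.7. Actc1, Cnn1, Actg2 and Myh11 of contractile cells stood at 344.3, 277.3, 240.4 and 966.9 CPM in the alveolar gate and at 16.4, 8.52, 12.8 and 54.8 CPM in members. The alveolar gate thus also held RNA of contractile cell genes, though the cells that carried it were not counted. In members, 40 of the 49 Actc1 UMIs came from 1 cell of p21mTertCD_1. Vipr2, the receptor for vasoactive intestinal peptide, stood at 2.14 against 73.0 CPM.

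Described by gene list, with counts of genes over and under 2-fold as above, 31 of 37 adventitial markers outside the rule were higher and 1, Cxcl14, was lower (median log2 ratio 2.11). In the core it was 30 of 38 and none, where 6.04% of all 3529 genes were higher and 9.97% lower (median -0.11). Of 21 alveolar fibroblast markers, none was higher and 19 were lower (median -2.12), and 17 were lower in the core. These lists describe the same contrast that chose the cells. Members did hold alveolar genes at a lower level: Inmt, a methyltransferase, stood at 1455 CPM against 4545, and Pdgfra at 297.9 against 927.6.

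**Figure D3:**
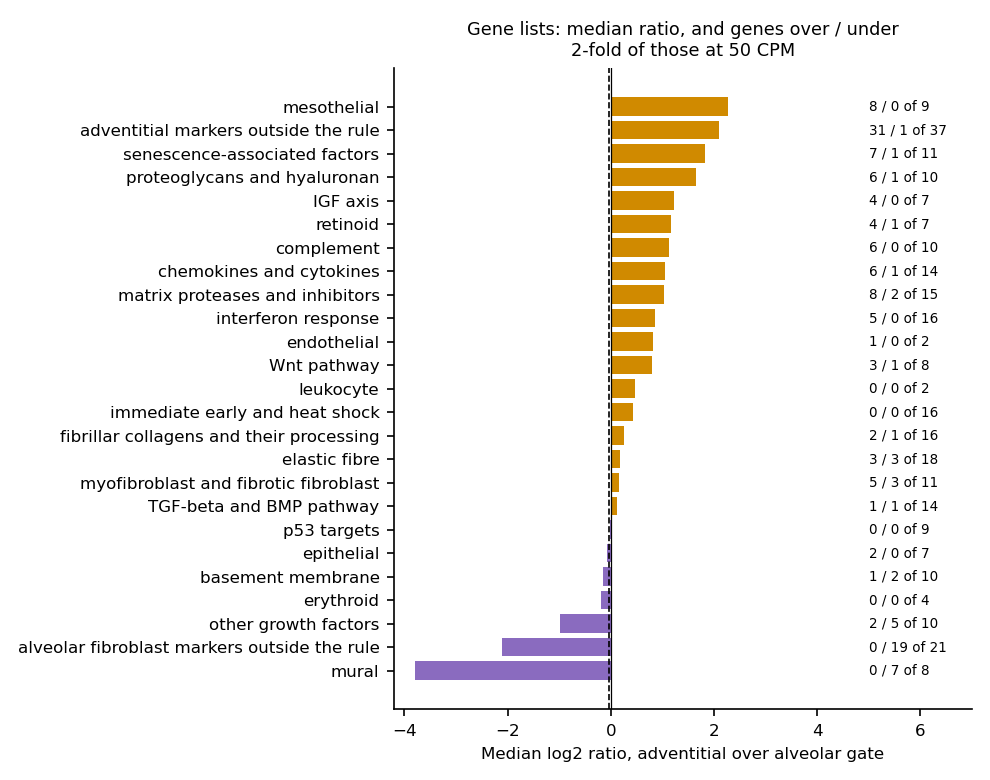
Median log2 ratio of the adventitial over the alveolar gate for each gene list (bars), with the number of its genes over and under 2-fold of those at 50 CPM or more; the dashed line is the median of all genes. Adventitial markers and proteoglycans lie to the right and mural genes at the far left, and the mesothelial bar comes from the mesothelial-like cells.

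Matrix genes did not differ as a block. Among proteoglycan and hyaluronan genes, 6 of 10 were higher (Dcn, Lum, Has1, Fmod, Vcan and Ugdh) and 1, Prelp, was lower (415.1 against 942.2 CPM); in the core 5 were higher and 1 lower. Biglycan (Bgn), also a small proteoglycan, was at 1835 against 2554 CPM. Of 16 genes of fibrillar collagens and their processing, 2 were higher, both procollagen proteases (Adamts2, 237.6 against 108 CPM, and Bmp1, 76.1 against 26.8 CPM), and Col6a3 was lower (median of the list 0.26). In the core 3 were higher and none lower. Col1a1 stood at 900.2 CPM in members and 1341 CPM in the core, against 550 CPM.

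Of 18 elastic fibre genes, 3 were higher, 3 lower and 12 neither (median 0.18), and in the core 4 were higher and 2 lower. The fibulins Fbln1 (602.5 against 204.5 CPM) and Fbln2 (289 against 20.6 CPM) and the microfibril protein Mfap5 (602.5 against 289.9 CPM) were higher. Mfap4 (529.3 against 2019 CPM), Lox, the enzyme that crosslinks elastin and collagen (66.7 against 243 CPM), and Emilin1 (88.6 against 180.5 CPM, with a median log2 ratio of -0.47 in the core) were lower. Elastin itself (Eln) stood at 471.1 against 820.4 CPM, and fibrillin Fbn1 at 401.7 against 257.9 CPM. Among basement membrane genes, Col15a1 was higher (65.1 against 20.8 CPM), Col18a1 and Lamb1 were lower, and 7 of 10 were neither; in the core 2 were higher and 1 lower.

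Of 15 matrix proteases and their inhibitors, 8 were higher and 2 lower (median 1.03; 10 higher in the core). Mmp3 stood at 526.5 against 104.5 CPM, Mmp23 at 135.5 against 29.5, cathepsin K (Ctsk) at 79.3 against 15.7 and Timp1 at 160.8 against 48.5. Serpine2, a serine protease inhibitor, was lower, at 96.0 against 419 CPM.

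Of 7 genes of the IGF axis, 4 were higher: Igfbp4 (1454 against 264.4 CPM), Igfbp6 (2448 against 555.9 CPM), Igf1 (173.7 against 69.8 CPM) and Igfbp5 (2853 against 557.2 CPM). Igfbp5 rested on the mesothelial-like cells and stood at 723.5 CPM in the core, where 3 of the 7 were higher and 1 lower. Of 10 other growth factors, 5 were lower, among them Hgf, Fgf7, Angptl4 and Vegfd, and 2 were higher, Penk and Mdk; in the core 3 were lower and 2 higher. Wnt2, a Wnt ligand of alveolar fibroblasts, stood at 4.6 against 82.8 CPM, and Wnt5a at 72.3 against 26.0 CPM. Rspo1, an enhancer of Wnt signals, stood at 191.9 CPM in members but at 34.5 CPM in the core, beside 36.3 CPM in the alveolar gate. Of 14 TGF-beta and BMP genes, Gdf10 was higher (99.8 against 37.4 CPM), Smad7 was lower and 12 were neither by this count. In the core 2 were higher and 3 lower.

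Of 14 chemokine and cytokine genes, 6 were higher (Ccl11, Ccl8, Il33, Cxcl12, Cxcl1 and Il6) and Cxcl14 was lower, and in the core 6 of 15 were higher and none lower. Of 10 complement genes, 6 were higher, among them C3 (4542 against 1650 CPM) and C1ra (441.5 against 196.1 CPM), and the core held 3373 and 440 CPM. In the core 3 of 9 were higher. C2 and Cfb of this list stood at 159.5 and 43.0 CPM in the core, against 92.4 and 23.7 CPM in the alveolar gate. Among 16 interferon response genes 5 were higher, with Ifi204 at 68.0 against 3.42 CPM and Ifi205 at 147.4 against 22.3 CPM; in the core 3 of 14 were higher. Of 7 retinoid genes, 4 were higher and Aldh1a1, which makes retinoic acid, was lower (257.4 against 1168 CPM), and in the core 3 of 8 were higher and 1 lower. Aldh1a2, its relative, stood at 200.1 CPM in members and 32.9 CPM in the core, and Rbp4, a retinol carrier, at 266.5 and 416.4 CPM, against 51.0 and 64.4 CPM in the alveolar gate. Of 11 genes of senescence-associated factors, 7 were higher (Igfbp4, Igfbp5, Mmp3, Cxcl1, Timp1, Ccl8 and Il6). In members 1 was lower, and in the core 6 of 12 were higher and 2 lower. All 7 also stand in the lists of IGF, protease or chemokine genes, so they are counted there too. None of 9 p53 targets differed by 2-fold, and Cdkn1a stood at 202.4 CPM in members, 152.8 CPM in the core and 126.8 CPM in the alveolar gate. None of 16 immediate early and heat shock genes did, with Fos at 4082 against 3430 CPM. These are the genes that tissue dissociation is known to raise. No gene of the proliferation and Schwann cell lists reached 50 CPM.

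The members were also split by Pi16, a gene that chose them and that no mesothelial-like cell held, so the values are a description. In cells thinned to 1000 UMIs, 118 members held a Pi16 UMI and 224 did not. Genes higher beside Pi16 in at least 10 libraries were led by Fbn1 (1017 against 245.5 CPM; 120 and 55 UMIs), the transcription factor Ebf1, the basement membrane protein nidogen (Nid1, 525.4 against 156.2 CPM) and Scara5. The genes lower beside Pi16 were Slpi, Clu, Msln, Gpm6a and Enpp2. The 224 cells include all the mesothelial-like ones, and a split on 1 gene at this depth is a range and not a cell type.

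The number of members overlapped between genotypes, but the groups were too small for the tests below to call a difference after adjustment. As a share of filtered cells it was 0.458% in WT, 0.505% ± 0.0814 (SD, n = 3) in p21Het, 0.443% ± 0.130 (n = 5) in p21mTert and 0.631% ± 0.396 (n = 2) in p21mTertCD. The lowest library was p21mTert_5 at 0.318% (exact binomial 95% interval 0.178 to 0.524) and the highest p21mTertCD_2 at 0.911% (0.679 to 1.2). The 2 libraries of p21mTertCD, at 0.351% and 0.911%, thus spanned nearly the whole range. The intervals cover counting error only.

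**Figure D4:**
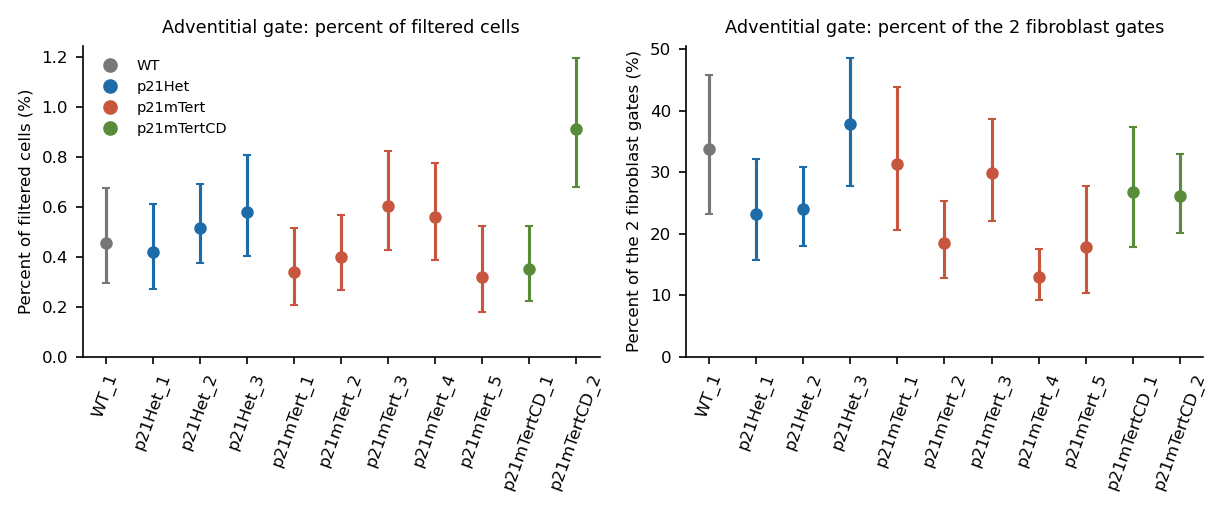
Members in each library as percent of filtered cells (left) and as percent of both fibroblast gates together (right), with exact binomial 95% intervals, coloured by group. The groups overlap in both, and p21mTertCD_2 (0.911%) and p21mTert_4 (12.9%) are the most extreme libraries on the left and on the right.

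Two-sided exact permutation tests over libraries gave p = 0.482 for p21mTert against p21Het, 0.381 for p21mTert against p21mTertCD and 0.8 for p21mTertCD against p21Het. The smallest p these group sizes allow is 0.0179, 0.0476 and 0.1. With these limits no value adjusted over the 6 share tests could fall under 0.05, so the tests cannot show that the shares are alike. Because a share of all cells also depends on the number of other cells, the members were counted a second time among both fibroblast gates together. There they made up 33.8% in WT, 28.3% ± 8.18 in p21Het, 22.1% ± 8.09 in p21mTert and 26.5% ± 0.417 in p21mTertCD (exact permutation p = 0.375, 0.524 and 1.0 in the same order; all 6 adjusted values 0.786 or more). p21mTert_4 had the lowest share, 12.9%, with 35 members beside 236 alveolar-gate cells. Without p21mTertCD_2 the p21mTertCD share of filtered cells (0.351%) lay below the means of both other groups but within the range of p21mTert (0.318% to 0.602%).

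The labels were checked on the genes of the p21 locus design. Tert had 10 UMIs in all members, in 8 cells: 2 in p21Het_1, 2, 1 and 2 in p21mTert_3, p21mTert_4 and p21mTert_5, and 3 in p21mTertCD_2. At 2.86 CPM its level could not be compared between groups, and the transgene was not separable from the endogenous gene. Cdkn1a stood at 314.1 CPM in WT. The p21Het libraries had 406.4, 160.2 and 252.7 CPM, those of p21mTert 40.9, 293, 232, 113.7 and 175.8 CPM, and those of p21mTertCD 93.1 and 144.6 CPM. Both p21mTertCD libraries lay below the 3 of p21Het, p21mTert overlapped both of these groups, and WT lay above every library of p21mTert and p21mTertCD. By edgeR's quasi-likelihood test its log2 fold change was -0.53 for p21mTert against p21Het (adjusted p = 0.998) and -1.09 for p21mTertCD against p21Het (unadjusted p = 0.0665). In the core these were 0.035 and -0.29 (unadjusted p = 0.941 and 0.615).

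Gene expression was compared between genotypes on UMIs summed per library over the members, with edgeR's quasi-likelihood test and Benjamini-Hochberg adjustment over 6365 genes. No gene was called at an adjusted p of 0.05 in p21mTert against p21Het (0.0%), p21mTert against p21mTertCD (0.0%) or p21mTertCD against p21Het (0.0%). At an unadjusted p under 0.05 there were 342, 270 and 263 of the 6365 genes, near the share of 0.05 that this level marks where nothing differs. DESeq2 called 2, 2 and 0: Adm and Gm10600 in the first comparison, Cilp and Wfdc2 in the second. Without the filter on low counts edgeR called 73, 94 and 91 genes. Among them were Adm, Gm47283, Cdh4, Gm10600, Emb, Fxyd3, Fabp4 and Hbb-bt in the first, Cilp, Wfdc2, Cbr2 and Pgf in the second and Adm, Creld2, Osr1, Vldlr and Msln in the third. With counts simulated for these genes and libraries, the test on p21mTert against p21Het found 34 of 100 genes changed 2-fold and 86 of 100 changed 4-fold, with 5 false calls in each run, so that smaller differences could be missed at this depth. In the core, the count was 0 in all 3 comparisons as well.

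The 3 comparisons share groups, so their values are set side by side below and not counted as repeats of each other. Named genes are the 5 of smallest p in each direction. Where groups are said below not to overlap, the share of all genes without overlap is not given, so this is a description and no test.

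Adm encodes adrenomedullin, a peptide that widens vessels and acts on endothelium (chr7:110627661-110629820). It stood at 26.1, 30.2 and 34.2 CPM in p21Het and at 64.3, 112, 131, 159 and 69.1 CPM in p21mTert; p21mTertCD had 74.5 and 146.5 CPM and WT 113.5 CPM. Every library of the other 3 groups lay above all 3 of p21Het, on 33 UMIs in p21Het and 161 in p21mTert. The log2 fold change was 1.86 (SE 0.355) for p21mTert against p21Het and 1.89 for p21mTertCD against p21Het, with adjusted p-values of 0.336 and 0.508 by edgeR and of 0.0467 by DESeq2 in the first comparison. The p21mTert difference was 1.98 in the core and 0.19 in the alveolar gate; the difference between the gates had an unadjusted p of 0.00291 and an adjusted p of 1.0. The UMIs came from 98 members. Within a library, the cell that held the most gave 34.0% to 63.6% of them in p21mTert, 40.0% and 38.2% in p21mTertCD and 20.0% to 30.8% in p21Het.

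**Figure D5:**
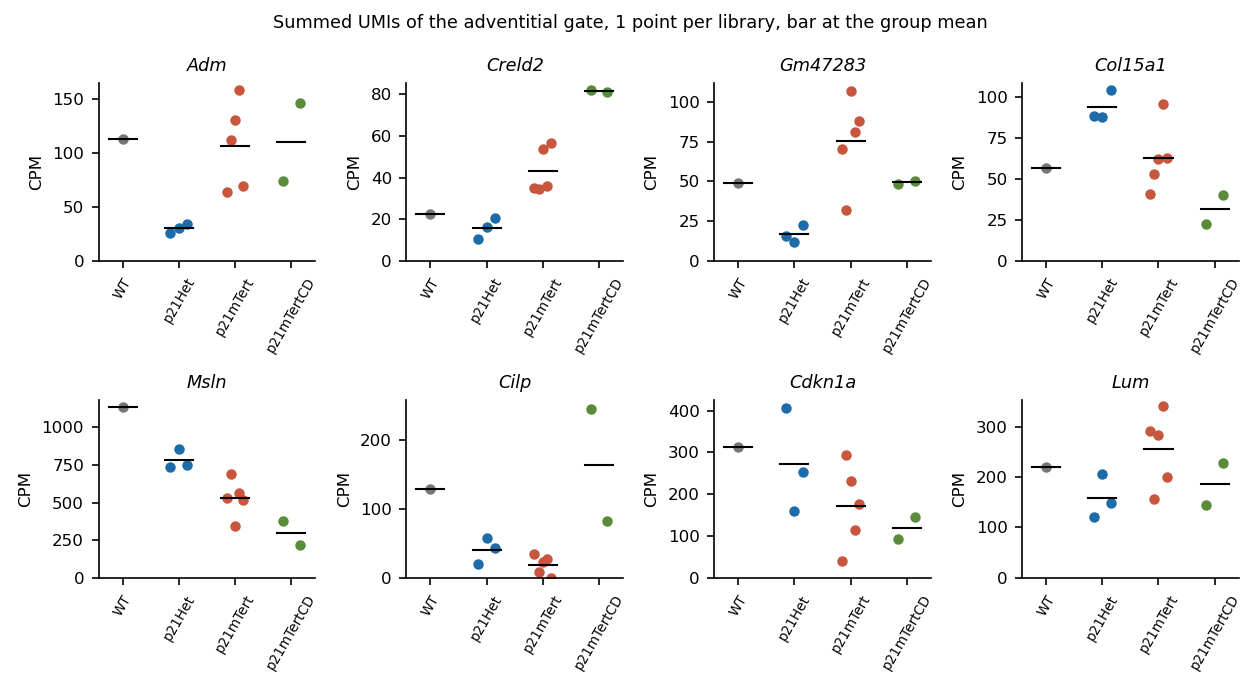
CPM of the summed UMIs of members for 8 genes, 1 point per library and a bar at the group mean. Adm is lowest in all 3 libraries of p21Het and Creld2 highest in both of p21mTertCD, and Cdkn1a in p21mTert overlaps both p21Het and p21mTertCD. None of the 8 passed the adjusted threshold by edgeR with all 10 libraries and the filter on low counts.

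With all 10 libraries, all members and the filter on low counts, the smallest adjusted p by edgeR was 0.0732, for Creld2 in p21mTertCD against p21Het. Creld2 is a chaperone-like protein of the endoplasmic reticulum stress response (chr15:88819646-88826683). It stood at 10.4, 16.3 and 20.5 CPM in p21Het, at 81.9 and 81.0 CPM in p21mTertCD, at 34.6 to 56.5 CPM (median 35.9) in p21mTert and at 22.7 CPM in WT. The 4 groups did not overlap, but p21mTertCD has 2 libraries and WT 1, and the gene was picked for its small p. The log2 fold change was 2.28 (SE 0.352) for p21mTertCD and 1.34 for p21mTert, each against p21Het. The counts behind it are small, with 18 UMIs in p21Het and 64 in p21mTertCD. The alveolar gate showed 0.68 (unadjusted p = 0.0523) and 0.25.

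Among the other genes highest in p21mTert against p21Het, Plekhh2 stood at 45.3 to 62.8 CPM against 23.2 to 31.3 CPM. Cdh4, a cadherin, stood at 32.0 to 113 CPM against 13.7 to 31.3 CPM. In the alveolar gate Cdh4 ran the other way, with a log2 fold change of -1.295 (unadjusted p = 0.0299 by edgeR). The gene model Gm47283 (chrY:90784738-90816464) stood at 32.0 to 107.1 CPM against 11.6 to 22.8 CPM (log2 fold change 2.13, adjusted p = 0.336). Its difference in the alveolar gate was of like size, 1.85. Its adjusted p was 0.027 without p21mTert_2 and 1.27e-05 without the filter on low counts.

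Among the lowest, the gene model Gm10600 (chr4:42240639-42242685) had 0 UMIs in all 5 p21mTert libraries and 12, 8 and 15 UMIs in p21Het. Against a floor of 3 UMIs over the p21mTert group this is at least 15.1-fold lower, and p21mTertCD had 3 and 0 UMIs. The alveolar gate showed the same absence. Gm10600 lies in a region of chromosome 4 that holds near-identical gene copies, so its counts are uncertain. Emb (embigin) stood at 0 to 11.7 CPM against 20.9 to 72.9 CPM, and Fxyd3, a regulator of the sodium pump, at 50.5 to 200.9 CPM against 248.4 to 448 CPM. Fxyd3 was a leading gene of the mesothelial-like cluster 4, and the cell with the most UMIs of either gene lay in that cluster. Emb was seen in 33 members, and neither gene was tested in the core. Fabp4 of fat and endothelial cells and Hbb-bt of red cells overlapped between the groups, and 31 of the 65 Fabp4 UMIs came from 1 endothelial-like cell of p21Het_2.

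Several of the genes of smallest p in p21mTertCD leaned on single cells. Cilp, a matrix protein of cartilage, stood at 245.8 and 82.9 CPM in p21mTertCD, 0 to 35.1 CPM in p21mTert, 20.8 to 58.0 CPM in p21Het and 128.7 CPM in WT. The log2 fold change was -3.06 (SE 0.537) for p21mTert against p21mTertCD (adjusted p = 0.289 by edgeR and 0.00362 by DESeq2), and -3.05 in the core. A single cell gave 60 of its 66 UMIs in p21mTertCD_1, another 18 of 43 in p21mTertCD_2 and another 32 of 34 in WT. The log2 fold change was -2.08 without p21mTertCD_1 and -3.73 without p21mTertCD_2. For Wfdc2 (218 UMIs) and Cbr2 (274 UMIs), genes of airway epithelium, a single cell of p21mTertCD_1 gave 85 and 157 UMIs. The same cell held most UMIs of Foxj1, Tmem212, Ccdc153 and Dynlrb2, genes of ciliated cells, and was not marked as a doublet. Without p21mTertCD_2, when p21mTertCD rests on p21mTertCD_1 alone and that lone library is assumed to vary like the other groups, 20 genes were called against p21mTert and 12 against p21Het. Among them were Cbr2, Wfdc2, Tmem212, Ccdc153 and AU040972, whose 85 UMIs came to 90.6% from 1 cell.

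Vldlr and Osr1 were spread over more cells, 131 and 185 members. Vldlr, a lipoprotein receptor, stood at 41.0 and 32.8 CPM in p21mTertCD against 65.8 to 105.2 CPM in p21mTert and 69.6 to 135.5 CPM in p21Het. Osr1, a transcription factor of fibroblast precursors, stood at 301.7 and 254.5 CPM against 104.5 to 145.7 CPM in p21Het, and p21mTert, at 143.6 to 269.9 CPM, overlapped both. Pgf, a growth factor of the VEGF family, stood at 48.4 and 46.3 CPM against 5.84 to 25.1 CPM in p21mTert. A single cell gave 6 of its 13 UMIs in p21mTertCD_1 and another 15 of 24 in p21mTertCD_2. In p21mTertCD against p21Het, Tuba1a (300 members) stood at 1002 and 784.8 CPM against 421.2 to 568.7 CPM. Zfp503 (121 members) stood at 111.7 and 104.1 CPM against 20.5 to 62.5 CPM. Aplp1 was lower, at 11.2 and 13.5 CPM against 55.7 to 83.4 CPM, and Bst1 at 14.9 and 30.9 against 99.8 to 125.2 CPM. Mdm4 (116 members), Bcam (85), Rcor3 (80) and Eml4 (74) were higher in p21mTert than in p21mTertCD. By edgeR with all 10 libraries and the filter on low counts, the adjusted p-values of these genes were above the threshold. Without that filter edgeR called Osr1, Vldlr, Tuba1a, Zfp503, Aplp1 and Bst1 in p21mTertCD against p21Het. It also called Pgf in p21mTert against p21mTertCD. The 2 libraries of p21mTertCD limit what these values show. Bcam and Bst1 were also leading genes of the mesothelial-like cluster 4, in 100% and 92.1% of its cells. The cell with the most Aplp1 UMIs lay in that cluster. Aplp1, Bcam and Bst1 were not tested in the core.

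Read by gene list, the counts at an unadjusted p under 0.05 are set against the share of all genes at that level, which was 2.8% higher and 2.58% lower in p21mTert against p21Het, 2.15% and 2.09% against p21mTertCD, and 1.84% higher and 2.29% lower in p21mTertCD against p21Het. Of 38 adventitial markers tested in p21mTert against p21Het, 1 was higher (Lum, 254.7 ± 74.2 CPM, n = 5, against 158.1 ± 44.3, n = 3) and 1 lower (Fbln2, 212.1 against 361.6 CPM), with a median log2 fold change of -0.09 beside 0.00 for all genes. None of 17 alveolar fibroblast markers reached that level in any comparison. In p21mTert against p21mTertCD, 1 of the 38 adventitial markers was higher and 4 were lower, among them Il33 (113 to 231.7 against 219.7 and 408.8 CPM) and Cd55, a complement inhibitor (18.8 to 71.9 against 67.0 and 142.7 CPM). Il33, Cd55 and Pcolce2 overlapped between the groups. Fbln2 (140.6 to 309.6 against 364.4 and 461.8 CPM) and the higher marker, Col15a1 (40.89 to 95.73 against 22.35 and 40.49 CPM), did not. The gap for Col15a1 was narrow. In p21mTertCD against p21Het, 2 of the 38 were higher (Clec3b and Il33) and 1 was lower (Col15a1).

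In p21mTert against p21Het, 2 of 11 proteoglycan and hyaluronan genes were higher (Lum, above, and Ogn) and 1 was lower (Bgn), and of 21 genes of fibrillar collagens and their processing 1 was lower (Col6a1). Bgn was lower (1289 to 1795 against 1860 to 2416 CPM, without overlap; log2 fold change -0.38), Ogn was higher (1374 against 1007 CPM), and Col6a1 was lower (353 against 477.7 CPM, without overlap). Col15a1, a basement membrane collagen, had 22.3 and 40.5 CPM in p21mTertCD against 88.2 to 104.7 CPM in p21Het (log2 fold change -1.47, unadjusted p = 0.00074) and 40.9 to 95.7 CPM in p21mTert. Of 18 elastic fibre genes, 2 in each of the comparisons with p21Het reached the unadjusted level: Fbln2 and Loxl2 in p21mTert, Mfap2 and Loxl2 in p21mTertCD. Mmp3 was the 1 protease gene of 16 that did, at 589.9 against 339 CPM in p21mTert and p21Het. The groups overlapped (316.9 to 862.4 against 244.9 to 499.1 CPM), and 1 cell gave 73 of 82 UMIs in p21mTert_1, 149 of 228 in p21mTert_4 and 81 of 97 in p21mTert_5.

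Among TGF-beta and BMP genes, Bmp5, a BMP ligand, stood at 107.8 CPM in p21mTert and 42.7 CPM in p21Het, with overlap. Tgfbr2 was lower in p21mTert (208.2 to 274.3 CPM) than in p21mTertCD (350.1 and 501.3 CPM). Penk stood at 143.8 to 338.9 CPM in p21mTert, at 46.9 to 173 CPM in p21Het, at 48.4 and 108 CPM in p21mTertCD and at 37.8 CPM in WT. Cxcl10, an interferon-induced chemokine, stood at 81.9 and 221.7 CPM in p21mTertCD, 5.84 to 71.9 CPM in p21mTert, 10.4 to 65.0 CPM in p21Het and 90.8 CPM in WT. A single cell gave 13 of its 22 UMIs in p21mTertCD_1 and another 65 of 115 in p21mTertCD_2. Of 12 senescence-associated genes tested, Mmp3 alone reached the level in p21mTert against p21Het, and of 14 p53 targets none. In the comparisons with p21mTertCD, 1 p53 target of 14 did in each. Bax was higher in p21mTertCD than in p21Het (110.9 against 68.9 CPM, unadjusted p = 0.033 by edgeR). Phlda3 was lower in p21mTert than in p21mTertCD (73.2 against 114.6 CPM, unadjusted p = 0.0349 by edgeR). Neither overlapped between the groups, but p21mTertCD has 2 libraries, and the share of all genes without overlap is not given. The IGF axis (7 genes) had none in any comparison.

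Genes of other cell types were also among those at an unadjusted p under 0.05. None passed adjustment by edgeR with all 10 libraries and the filter on low counts. All 9 mesothelial genes were tested, and in p21mTertCD against p21Het 6 were lower at an unadjusted p under 0.05 (median of the list -0.90), with Msln at 376.2 and 216 CPM against 739.8 to 854.2 CPM (log2 fold change -1.37). In p21mTert against p21Het 3 of 9 were lower. The 9 genes lie largely in the same few cells, so their counts are not separate results. Mesothelial-like members numbered 3 and 6 in the p21mTertCD libraries and 5, 5 and 9 in those of p21Het. A single cell gave 83 of the 101 Msln UMIs in p21mTertCD_1 and another 42 of 112 in p21mTertCD_2. The summed level of the list was 1760 to 1993 CPM in p21mTertCD, 1532 to 3739 in p21mTert, 3057 to 4501 in p21Het and 4264 in WT, beside the share of mesothelial-like members given above. Of the genes of the contractile cluster, Hhip stood at 192.8, 181.1, 1213, 1245 and 1720 CPM in p21mTert and at 276.1, 271.6 and 207.2 CPM in p21Het. Aspn stood at 134.4, 130.5, 181.4, 604.3 and 596.3 CPM in p21mTert and at 151.1, 120.7 and 36.4 CPM in p21Het. Both overlapped between the groups (adjusted p = 0.908 by edgeR), and Hhip in p21mTert_1 and p21mTert_2 lay below every p21Het library. In p21mTertCD, Hhip (525.2 and 582.3 CPM), Aspn (361.3 and 300.8 CPM; unadjusted p = 0.0133) and Des, the muscle filament desmin (104.3 and 133 CPM, against 27.3 to 53.4 CPM; unadjusted p = 0.00187, adjusted p = 0.636 by edgeR), lay above every p21Het library. Other genes that led cluster 3 overlapped between p21mTertCD and p21Het. Acta2 stood at 651.8 and 291.2 CPM against 20.5 to 484.5 CPM, and Tagln at 700.2 and 212.1 against 11.4 to 348.2 CPM. Myh11 stood at 149.0 and 17.35 CPM against 0 to 104.2 CPM. Cluster 3 held 23 of 139 members in p21mTert, 8 of 104 in p21Het, and 4 of 23 and 5 of 51 in the p21mTertCD libraries. It had no cell in p21mTert_1 and 10 cells in p21mTert_4. Of 8 epithelial genes, Sftpa1, Sftpb and Cxcl15 were lower and Scgb1a1 higher at that level in p21mTert against either other group, and none was in p21mTertCD against p21Het. Sftpa1, a surfactant protein gene, stood at 18.8 to 242.3 CPM in p21mTert, 374.1 and 603.4 CPM in p21mTertCD, 18.2 to 921.5 CPM in p21Het and 15.1 CPM in WT. A single cell gave 145 of its 162 UMIs in p21mTertCD_1, another 173 of 194 in p21mTertCD_2 and another 315 of 397 in p21Het_2. In summed UMIs, fewer cells of a kind and less RNA per cell cannot be told apart. The part of cell makeup in the differences of the fibroblast genes was not tested, and in the core the log2 differences of Adm, Creld2 and Cilp were 1.98, 2.24 and -3.05.

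Whether p21mTert against p21Het differed between the 2 fibroblast gates was tested as an interaction, with each library as a block. None of 8582 genes was called by edgeR (0.0%), and 363 had an unadjusted p under 0.05, also near a share of 0.05. The smallest adjusted p was 1.0. Without p21mTert_1, 2 genes were called, Cdh4 (3.21) and Ighg2c (8.76). Of the 893 UMIs of Ighg2c, an antibody heavy chain, 861 came from the cell of p21mTert_2 that also held most of Igkc. Ighg2c was also the call made in the later deposit alone.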

How the data were processed

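Per the labels' protocols, dissociated lungs were loaded on a 10x Genomics 3′ kit, and the authors used Cell Ranger with the mm10 build to obtain counts; the sources differ on its version. The deposited files hold raw UMI counts per gene and barcode, without the cell filters or the scran normalization that the labels describe. The members and gene lists were chosen with earlier results of these data known.

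Members were selected on raw counts, clustered with scanpy 1.11.5 and leidenalg 0.10.2 (1000 variable genes, 20 components, 15 neighbours, resolution 0.8), and summed per library. Scrublet marked the highest scores up to 0.8% per 1000 barcodes; marked cells stayed in and were left out as an alternative. edgeR 4.0.16 (R 4.3.3) was fitted on the 10 libraries of the 3 replicated groups (filterByExpr, TMM, glmQLFTest); WT entered no test. It was tested on simulated counts. Genes named are Tert, Cdkn1a, up to 10 called genes a direction, otherwise the 5 of smallest p, and for the gates the 25 highest and 15 lowest ratios; others come from the fixed lists, of which some members are counted but not reported here. Genes singled out for UMIs in 1 cell were chosen after their values were seen. Coordinates of genes come from GENCODE M21 (GRCm38), where 31011 of 31053 identifiers were found.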

Additional observations from a re-analysis of the deposited data

Results flagged for a closer look

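Among the 24 values examined for a single library far from its group, 1 stood out. Gfra2, a receptor of the GDNF family, had 50.21 CPM in p21mTert_5, against 18.64 to 23.79 CPM in the other 4 libraries of p21mTert. It rests on 8 UMIs in p21mTert_5. Chance alone marks about 1 in 20 such groups.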

How the results depend on the processing

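Members were few (15 to 51 per library), so levels under about 20 CPM rest on fewer than 10 UMIs in most libraries; p21mTertCD has 2 libraries and WT 1. Calls by edgeR were 0 in the 3 genotype comparisons and in the comparison of the gates with median-ratio factors, with doublets left out, with at least 3 UMIs of the marker genes, without the library under 20 members, and in the core (an alternative chosen after seeing the data). Without the filter on low counts, 73 genes were called in p21mTert against p21Het, 94 in p21mTert against p21mTertCD, 91 in p21mTertCD against p21Het and 48 between the gates. DESeq2 called 2, 2 and 0. The later deposit alone called 1 between the gates. Leaving out 1 library gave 0 to 1, 0 to 20, 0 to 12 and 0 to 2 calls. The cause of these shifts was not tested beyond the single cells named above. Members with a UMI of 11 genes of other cell types could not be left out, since 339 of 342 carried one, and that alternative was not run.

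With the replicate block over the 8 libraries whose titles print a number, 1 gene was called in each genotype comparison (Ighg2c in both with p21mTert, Slurp1 in the third). The replicate numbers gave no sign of pairing: deviations of same-numbered libraries correlated at -0.192, -0.126, 0.005 and -0.007. With 2 numbered libraries in p21Het and 2 in p21mTertCD, the deviations within each mirror each other, so these values cannot settle it.

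Shares of filtered cells, as differences in percentage points, were -0.0617 for p21mTert against p21Het (-0.105 to -0.0242 leaving out 1 library), -0.188 against p21mTertCD (-0.468 to 0.0923) and 0.126 for p21mTertCD against p21Het (-0.154 to 0.406); the sign turned without p21mTertCD_2 in the last 2 (0.0923 and -0.154) and, in the last, in thinned cells (-0.0327). Of both gates they were -6.23 (-8.8 to -1.52), -4.34 (-6.65 to -2.04) and -1.9 (-4.46 to 2.82), with a turned sign in thinned cells for the second (2.17) and without p21Het_3 for the third (2.82). Cdkn1a in p21mTert against p21Het turned from -0.53 to 0.035 in the core, 0.0058 in the later deposit and 0.42 with the replicate block. In p21mTert against p21mTertCD, Wfdc2 turned to 0.12 and Cbr2 to 0.43 with the replicate block, and Cbr2 to 0.15 without p21mTertCD_1 (range leaving out 1 library -4.09 to 0.15). Every other named gene had its main direction under each alternative run.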
